A study of Homo sapiens with 6 samples.

Results

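The galectin system was examined in AGS cells with and without knockdown of C1GALT1. Its 8 members here are the galectin genes LGALS1, LGALS2, LGALS3, LGALS4, LGALS8, LGALS9 and LGALS12, together with LGALS3BP, which encodes a secreted glycoprotein that galectins bind. Members were chosen as gene probes whose RefSeq accession on the array belongs to one of these 8 genes, which gave 9 probes out of 58201 and 8 of 22439 named genes, with LGALS9 read by 2 probes. In RefSeq annotation of GRCh38.p14, LGALS9 and LGALS3BP lie on chromosome 17, LGALS1 and LGALS2 on 22, LGALS3 on 14, LGALS4 on 19, LGALS8 on 1 and LGALS12 on 11. AGS is an established human gastric adenocarcinoma line, and total RNA was profiled 48 h after siRNA transfection on one-colour Agilent arrays. The control group of 3 samples, si-Control, received nontargeting siRNA, and the knockdown group of 3 samples, si-C1GALT1-3, received a single siRNA sequence against C1GALT1. Effects of that one sequence and of losing C1GALT1 cannot be told apart here. Nothing in the labels says whether samples came from separate cultures, so p-values measure only the spread between these samples, which may be technical.

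Galectins are soluble lectins that recognize beta-galactosides, above all N-acetyllactosamine, and they crosslink glycoproteins at the cell surface. C1GALT1 is the enzyme that adds galactose to O-linked GalNAc to form the core 1 structure, the base on which many galactose-bearing O-glycans are extended. Some galectins also work inside the cell, where they detect sugars exposed on broken endosomes and lysosomes, and LGALS9 and LGALS3BP are known as interferon-responsive genes.

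C1GALT1 itself read 12.22, 13.03 and 12.62 on the si-Control arrays and 11.76, 11.98 and 11.13 on the si-C1GALT1-3 arrays, as log2 normalized intensity. All 3 knockdown arrays lay below all 3 control arrays, and the log2 difference was -1.0 (SE 0.310, limma adjusted p = 0.265). The epithelial markers KRT8, KRT18, KRT19, EPCAM and CLDN4 were detected well above background on each of the 6 arrays. Of 10 measured markers of leukocytes, fibroblasts and endothelium, 7 were also above background on every array with a value, among them PTPRC, COL1A1 and VWF, while COL1A2 was on none. Without overlap between groups, VWF had a log2 difference of -1.03 and PDGFRB of -0.81 after knockdown. Both spots lay in the low-signal region described below, leaving 2 control values each, and 10.4% of all probes were lower without overlap. COL3A1 differed by 1.17 with overlap, and none of the 3 passed the threshold for a call given next. PTPRC averaged 13.97 in the controls, beside 13.75 for CLDN4, the lowest of the epithelial markers. All samples were the cultured AGS line, so these marker values are not read as numbers of cells of a type. Their part in the results was not tested. Replicates of the same number shared a slide, on which the si-Control array always had the same position, so position and treatment cannot be told apart. On si-Control replicate 2 a low-signal central region held 15.9% of gene spots. Only 36.5% of the spots inside it were well above background against 71.9% outside, and they were set to missing, both LGALS9 probes among them.

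A probe was called changed at an unadjusted limma p under 0.01 with at least a 2-fold difference. Of the 9 galectin probes, 2 were called higher after knockdown, one for LGALS9 and the one for LGALS3BP, where 1.65% of all probes tested were called higher. None was called lower, against 0.992% of all probes. Without overlap between groups, 4 probes were higher and 1 was lower, and the same held for 11.0% and 10.4% of all probes. Of the 4, the LGALS9 probe had only 2 control values, with which groups separate more easily than with 3. Counted by gene, with LGALS9 read from its brighter probe, 1 of the 8 was called higher, LGALS3BP, and none lower. The shares over all named genes were 2.08% called higher and 1.33% called lower. Among the 8, 5 were higher and 3 lower, with a median log2 difference of 0.32 against 0.02 over all named genes. The member median was 0.72 with LGALS9 read as the median of its probes. No galectin probe reached an adjusted p under 0.05, the smallest being 0.127, while 49 probes on the whole array did. That count of 49 was fragile, ranging from 0 to 545 over the alternative settings. All 9 probes were well above background on every array with a value. So were 7 of the 10 measured markers of other cell types, which limits what this flag says about expression.

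**Figure D1:**
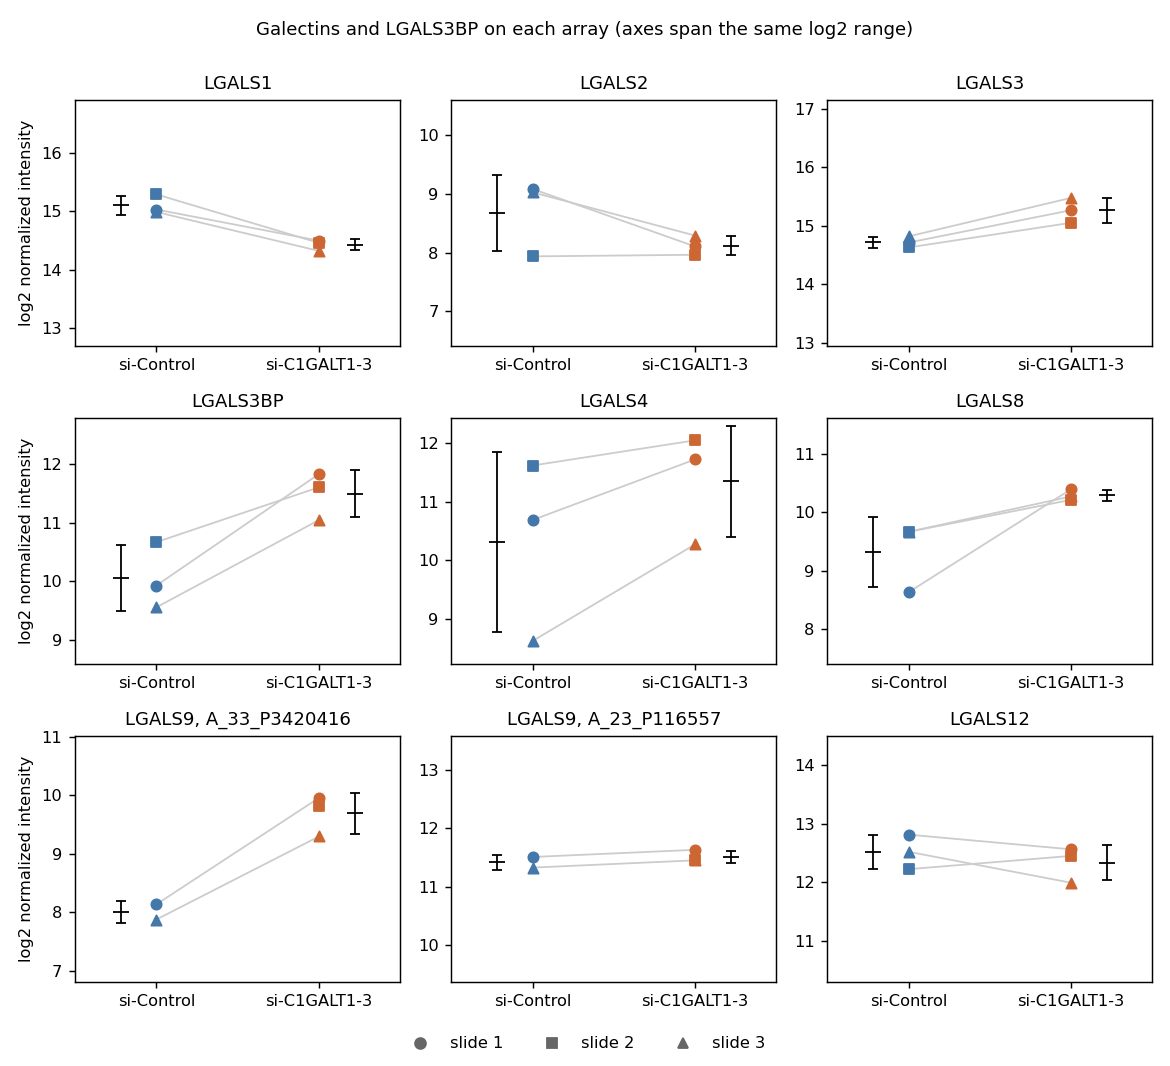
Log2 normalized intensity of each galectin probe on the si-Control (blue) and si-C1GALT1-3 (orange) arrays, with lines joining arrays of the same slide and bars giving mean ± SD beside each group. LGALS3BP, LGALS8, LGALS3 and LGALS9 probe A_33_P3420416 lie higher without overlap after knockdown, LGALS1 lies lower, and both LGALS9 probes lack a value for si-Control replicate 2.

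Among the galectin probes the largest difference was on the dimmer LGALS9 probe. With LGALS9 read from its brighter probe, at 0.09, the largest difference by gene was 1.45 for LGALS3BP. LGALS9 is a galectin with paired carbohydrate-binding domains that binds the immune receptor HAVCR2. Its gene and that of LGALS3BP are shown first by sequence, because they alone among the member genes with a promoter window held the core of the interferon-stimulated response element. The windows are RefSeq sequence of GRCh38.p14, from 250 bases before the gene start to 50 bases from it, printed 5′ to 3′ on the gene's strand. The motif searched was GAAANNGAAA on both strands, and capitals mark it. The LGALS9 window is chr17:27630938-27631237 on the plus strand, where the motif runs on the opposite strand and ends at the first base of the gene. The LGALS3BP window is chr17:78979874-78980173 on the minus strand, where the motif lies on the gene's own strand from -58 to -49, counted with the first base of the gene as 0.
LGALS9: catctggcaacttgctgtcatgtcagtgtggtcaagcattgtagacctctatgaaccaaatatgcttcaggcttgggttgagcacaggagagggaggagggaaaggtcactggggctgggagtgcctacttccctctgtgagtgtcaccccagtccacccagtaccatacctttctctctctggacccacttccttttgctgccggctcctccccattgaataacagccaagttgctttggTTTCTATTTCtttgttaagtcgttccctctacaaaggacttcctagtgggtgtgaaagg
LGALS3BP: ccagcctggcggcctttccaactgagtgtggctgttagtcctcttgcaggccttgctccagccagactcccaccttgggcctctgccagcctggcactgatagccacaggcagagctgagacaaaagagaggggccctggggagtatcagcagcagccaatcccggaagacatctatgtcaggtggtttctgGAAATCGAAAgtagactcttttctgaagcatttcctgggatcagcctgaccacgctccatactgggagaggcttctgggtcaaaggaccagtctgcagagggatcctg
The motif was found in 3.57% of 35116 RefSeq promoter windows of the same length and in 14 of 23 windows of the interferon-stimulated genes listed further on. Among the members it was found in 2 of 8 windows, which belong to these 2 of the 6 member genes with a window. The windows of LGALS2, LGALS3, LGALS4 and LGALS8 did not hold these letters, and LGALS1 and LGALS12 were not searched. A match in letters is a description and not a binding site.

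On the LGALS9 probe A_33_P3420416, log2 normalized intensity was 8.14 on si-Control replicate 1 and 7.88 on replicate 3. After knockdown it was 9.96, 9.82 and 9.30. All 3 knockdown arrays were above both control arrays, a 3.21-fold rise with a log2 difference of 1.68 (SE 0.261, 95% interval 1.00 to 2.37, adjusted p = 0.127 by limma). The rise was seen on both slides with a value, at 1.82 and 1.42 on the log2 scale. On si-Control replicate 2 the spot lay in the low-signal region, with a processed intensity of 69.3 as deposited, and with that region kept the log2 difference was 2.14. The call was lost without normalization between arrays (log2 difference 1.81) and without si-Control replicate 3 (1.54), which leaves 1 control array assumed to vary like the others.

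The other LGALS9 probe, A_23_P116557, which had the higher mean signal and therefore stands for the gene in the counts by gene, gave another value. It read 11.51 and 11.33 on the control arrays and 11.63, 11.45 and 11.45 on the knockdown arrays. These groups overlapped, with a log2 difference of 0.09 (SE 0.163, 95% interval -0.33 to 0.52, adjusted p = 0.869 by limma). Within each array the first probe minus the second was -3.37 and -3.45 in the controls and -1.68, -1.63 and -2.16 after knockdown. The mean gap was thus smaller by 1.59 on the log2 scale after knockdown, which restates the disagreement of the probes and was not tested. The accession on the array differs between the probes, and whether they read different LGALS9 transcripts was not tested.

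LGALS9 has near-identical copies in the genome, and LGALS9C had a probe of its own, A_32_P452655, outside the low-signal region. It read 8.36, 8.35 and 8.42 on the 3 control arrays and 10.18, 10.06 and 9.58 after knockdown. The control arrays lay close together and the knockdown arrays all stood above them, a 2.96-fold rise with a log2 difference of 1.56 (SE 0.193, adjusted p = 0.0823). RNA of LGALS9, LGALS9B and LGALS9C may cross-hybridize, so the assignment of this signal and that of probe A_33_P3420416 to one gene is uncertain. The stretch that holds the motif in LGALS9 is shown beside the same stretch of its copies, because a single base separates them there. Capitals mark the motif's 10 positions, counted from 1 at the first capital, and both copies carry T9A relative to LGALS9.
LGALS9: gttgctttggTTTCTATTTCtttgttaagt
LGALS9B: gttgctttggTTTCTATTACtttgttaagt
LGALS9C: gttgctttggTTTCTATTACtttgttaagt
The copies' stretches come from the windows chr17:20467490-20467789 on the minus strand for LGALS9B and chr17:18476539-18476838 on the plus strand for LGALS9C, in the same RefSeq build. Neither window held the motif elsewhere.

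LGALS3BP read 9.93, 10.67 and 9.55 on the si-Control arrays and 11.83, 11.60 and 11.04 on the si-C1GALT1-3 arrays. The lowest knockdown array was above the highest control array, and the difference was positive on every slide, at 1.91, 0.94 and 1.49 on the log2 scale. The fitted rise was 2.72-fold, a log2 difference of 1.45 (SE 0.355, 95% interval 0.57 to 2.32, adjusted p = 0.193 by limma). This call held in 9 of 17 other settings and the direction in all 17. It was lost without si-Control replicate 1 (1.39) or 3 (1.19), without si-C1GALT1-3 replicate 1 (1.28) or 2 (1.40), without normalization between arrays (1.58), with the low-signal region kept (1.35), with the authors' background-subtracted series table (1.46) and with variances not moderated across probes. Among named genes well above background, the levels of CPT2, KLHDC9, USP27X-DT, FMN1 and MTR followed LGALS3BP most closely over the 6 arrays, with Pearson r between 0.995 and 0.999. These are the top 5 of 18648 probes over 6 arrays that also differ by treatment, and they are given as a description only.

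LGALS8, which binds sialylated galactosides and marks damaged endosomes, read 8.64, 9.67 and 9.67 in the controls and 10.40, 10.22 and 10.27 after knockdown. The knockdown arrays lay close together above all controls, of which replicate 1 was the lowest. The log2 difference of 0.97 (SE 0.313, 95% interval 0.20 to 1.75, adjusted p = 0.278 by limma) missed both parts of the call, and it was 0.63 without si-Control replicate 1. Within slides it was 1.76, 0.55 and 0.60.

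LGALS3, the chimera-type galectin with one carbohydrate-binding domain and a long flexible tail, read 14.72, 14.63 and 14.82 in the controls and 15.27, 15.05 and 15.48 after knockdown. All knockdown arrays were above all controls by a narrow but regular margin of 0.55, 0.42 and 0.66 within slides. The log2 difference was 0.55 (SE 0.160, 95% interval 0.15 to 0.94, adjusted p = 0.247 by limma), a 1.46-fold difference that was not called.

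LGALS1, which acts as a dimer and is known for effects on T cells and cell migration, was the only member whose groups separated in the lower direction. It read 15.03, 15.29 and 14.99 in the controls and 14.50, 14.46 and 14.32 after knockdown. Every knockdown array was below every control array, by 0.53, 0.83 and 0.67 within slides. The log2 difference was -0.68 (SE 0.145, 95% interval -1.04 to -0.32), with an unadjusted p of 0.00396 and an adjusted p of 0.159 by limma. At 1.60-fold lower it passed the p but not the fold of the call.

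LGALS4, a galectin of the gastrointestinal epithelium that organizes glycolipid-rich membrane, varied most between arrays. Its log2 levels were 10.69, 11.62 and 8.62 in the controls and 11.73, 12.05 and 10.27 after knockdown. Both arrays of slide 3 were the lowest of their group and the groups overlapped, although the knockdown array was higher on each slide, by 1.04, 0.43 and 1.65. The log2 difference of 1.04 had a wide error (SE 0.878, 95% interval -1.14 to 3.21, adjusted p = 0.662 by limma). It was 0.19 without si-Control replicate 3 and 1.70 without si-Control replicate 2, and its unadjusted p was 0.283 as fitted and 0.0273 with the replicate as a block.

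LGALS2, another galectin of the gut lining, read 9.09, 7.93 and 9.03 in the controls and 8.10, 7.96 and 8.29 after knockdown. Control replicate 2 sat among the knockdown arrays, so the groups overlapped. The log2 difference was -0.57 (SE 0.343, 95% interval -1.41 to 0.28, adjusted p = 0.534 by limma), and -0.95 without that control array. LGALS12, known from fat cells, read 12.82, 12.23 and 12.52 in the controls and 12.57, 12.45 and 12.00 after knockdown. Its groups overlapped, with a log2 difference of -0.18 (95% interval -0.76 to 0.40).

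**Figure D2:**
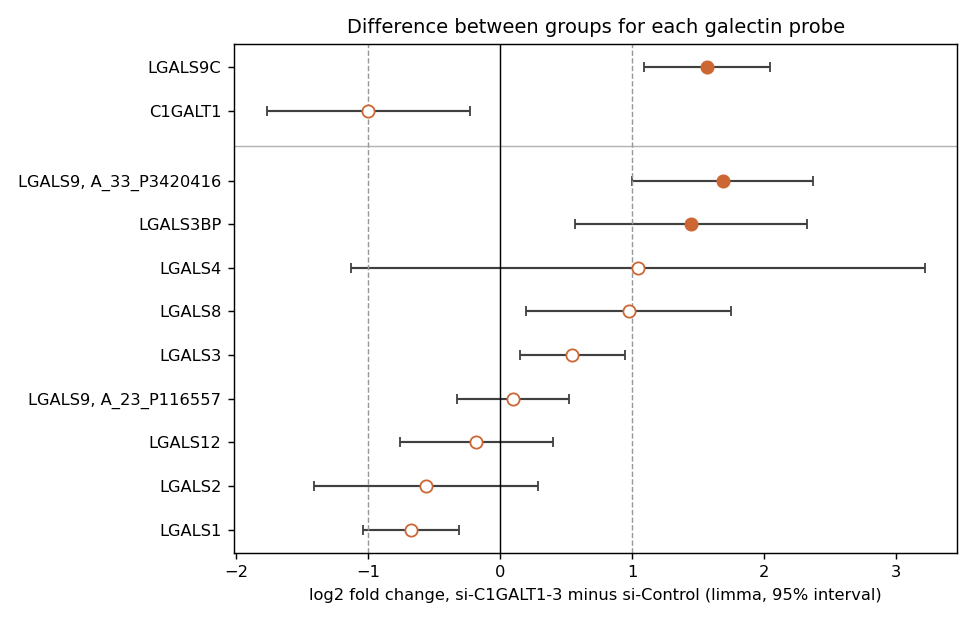
Log2 fold change of each galectin probe, with LGALS9C and C1GALT1 above the line, as si-C1GALT1-3 minus si-Control with its 95% interval from limma. Filled points were called at p under 0.01 and 2-fold, dashed lines mark 2-fold, and the 2 LGALS9 probes lie apart at 1.68 and 0.09.

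Beyond the members, 7 of 10 other galectin family genes were measured, and 4 of these were detected throughout 1 group or both. LGALS9C was the 1 called higher and none was called lower, with a median log2 difference of -0.01. Over all named genes, 2.08% were called higher and 1.33% lower, the background for this list and those that follow. The largest fall in this group was LGALSL, a galectin-like protein without known sugar binding, at -0.91 (SE 0.237, adjusted p = 0.238 by limma). Its spot also lay in the low-signal region, and its value was 1.56 with that region kept.

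Of the surface glycoproteins that galectins bind, 22 genes were measured, of which 1 was called higher and 1 lower, with a median log2 difference of -0.01. Each call is 4.55% of the list, against 2.08% higher and 1.33% lower over all named genes, and each share rests on a single gene. MUC1, a mucin that carries core 1 O-glycans and is bound by LGALS3, rose by 2.34 on the log2 scale (SE 0.443, adjusted p = 0.137 by limma). Its highest control level was 12.01 and its lowest knockdown level was 13.01, and within slides it was higher by 2.64, 1.86 and 2.51. The call for MUC1 was lost without si-Control replicate 1 (2.24) and without si-C1GALT1-3 replicate 1 (2.29), and with variances not moderated across probes. EGFR, a growth factor receptor whose N-glycans bind galectins, changed by -1.40 (SE 0.229, adjusted p = 0.112). Its levels of 12.51, 12.47 and 11.84 in the controls stood above 10.70, 10.92 and 11.01 after knockdown. Which EGFR transcripts its probe reads was not tested.

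Of the enzymes that build N-acetyllactosamine, the preferred galectin ligand, 21 of 22 genes were measured, with none called higher, 2 called lower and a median of 0.07. The share called lower was 9.52% against 1.33% of all named genes, and it rests on these 2 genes. B3GNT5, which starts the lacto-series glycolipids, changed by -1.96 (SE 0.246, adjusted p = 0.0839 by limma), from 11.59, 11.94 and 11.48 to 9.86, 9.99 and 9.27. B4GALT5, a lactosylceramide synthase, changed by -1.23 (SE 0.236, adjusted p = 0.137), from 13.38, 13.80 and 13.45 to 12.30, 12.68 and 11.95. Both genes act early in glycolipid synthesis, and every knockdown array was below every control array for each. The largest rise in the list, GCNT2, which branches poly-N-acetyllactosamine, was 0.61 (SE 0.595) and was not called, and it was 0.05 without si-Control replicate 3 and 1.26 without si-Control replicate 2.

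Of 13 enzymes that make or cap core 1 none was called, and the median log2 difference was 0.08. C1GALT1 had the largest fall of that list at -1.0, and the largest positive value was 1.00 for the sialyltransferase ST3GAL2 (SE 0.534, adjusted p = 0.494), whose groups overlapped. The ST3GAL2 spot lay in the low-signal region, leaving 2 control values, and its value was 0.52 without si-Control replicate 3 and 1.47 without replicate 1. Of 16 measured partners of galectins at damaged endolysosomes none was called either, with a median of 0.22. The values there ran from -0.28 for MAP1LC3B, the autophagosome marker, to 0.84 for CHMP4B, a membrane repair subunit. The CHMP4B spot was also in the low-signal region, and its value was 2.42 with that region kept.

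Of 23 measured interferon-stimulated genes, a list drawn up with earlier results of these arrays known, 22 were higher and 11 were called higher, with a median log2 difference of 0.98 against 0.32 for the member genes and none called lower. The share called higher was 47.8%, against 2.08% of all named genes. The largest rise was OAS2, an antiviral RNA sensor, at 2.63 (SE 0.227, adjusted p = 0.0499 by limma), with 8.62, 9.35 and 8.82 in the controls against 11.63, 11.67 and 11.40 after knockdown. The one negative value was -0.13 for IFIT2 (SE 0.348). The part of an interferon response in the galectin values was not tested.

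**Figure D3:**
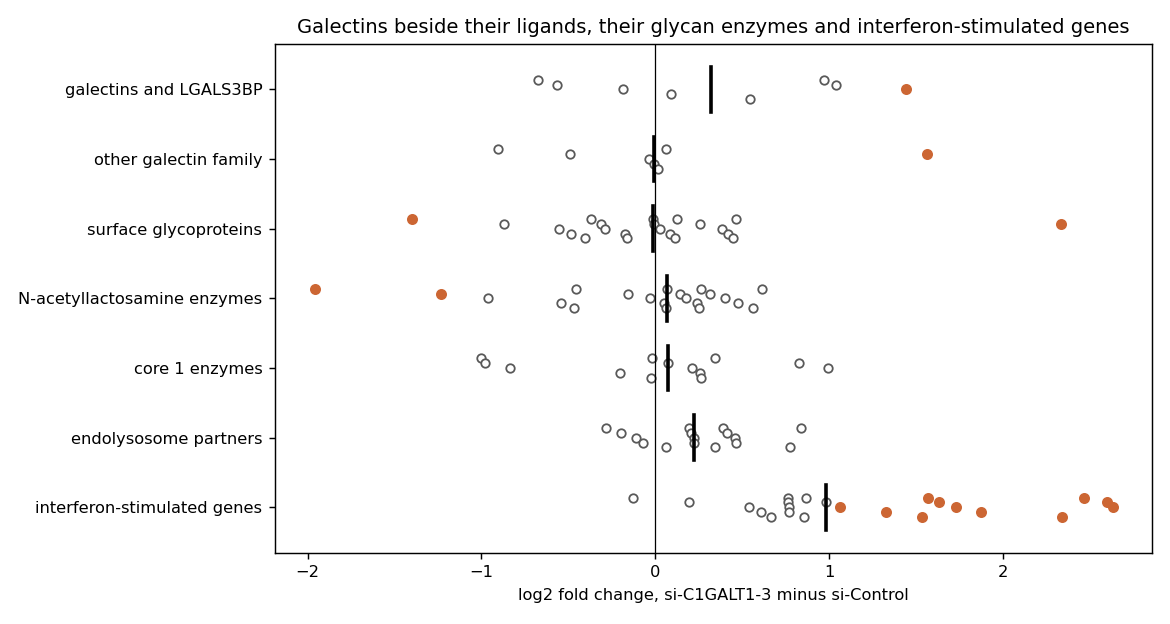
Log2 fold change (si-C1GALT1-3 minus si-Control) of the 8 member genes and of 6 related gene lists, 1 point per measured gene, filled where called at p under 0.01 and 2-fold, with a bar at each list's median. The member median is 0.32, with LGALS9 shown by its brighter probe, and that of the interferon-stimulated genes is 0.98, while the other lists have medians between -0.01 and 0.22.

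Direction was steadier than the calls. Each of the 9 galectin probes kept the sign of its log2 difference in all alternative settings and with each array left out. The narrowest margins were those of LGALS12 at -0.01 and of LGALS9 probe A_23_P116557 at 0.003, each with 1 array left out.

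**Figure D4:**
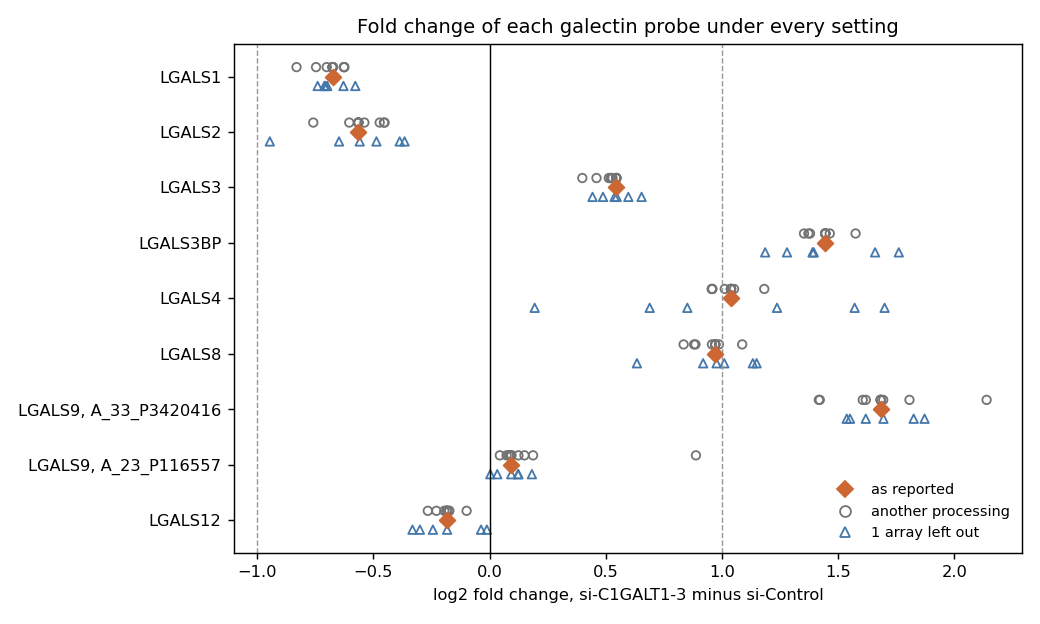
Log2 fold change of each galectin probe as reported (diamonds), under other processing (circles) and with 1 array left out (triangles), with dashed lines at 2-fold. LGALS4 spreads from 0.19 to 1.70 and LGALS1 from -0.83 to -0.58, and the circle at 0.89 for LGALS9 probe A_23_P116557 is the median over both LGALS9 probes.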

How the data were processed

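The authors deposited Agilent Feature Extraction output (version 10.5.1.1, per the submitters' notes) for each array, with intensity per spot and no normalization between arrays, and a series table of background-subtracted intensity. Their methods then name quantile normalization and limma. Here log2 of the processed intensity was taken without control spots, outlier spots (100 to 211 per array) and the low-signal region, quantile normalized, averaged per probe and fitted with limma 3.58.1 in R 4.3.3, with Benjamini-Hochberg adjustment over 58193 probes. With the low-signal region counted in, 66.2% to 72.7% of gene spots per array stood well above background and none was saturated. The lowest share was that of si-Control replicate 2, which stood at 71.9% outside that region. The number of arrays limits precision. A gene with several probes was read from the one with the highest mean signal. Probes were named through RefSeq accessions, and the files' own build was not used for coordinates. Besides the members and C1GALT1, genes named are the largest rise and fall of each list among detected probes, B4GALT5 as called, and the 5 genes most like LGALS3BP. Members, lists and the motif searched were chosen with earlier results of these data known. Same-numbered replicates shared a slide and their deviations from the group means correlated (r = 0.198, 0.215 and 0.329), so the numbers were taken as pairs. The values printed are from the fit without pairs unless the block is named. The test was checked on simulated data with independent arrays and no missing values. That check did not cover spots set to missing or arrays sharing a slide. Alternatives covered normalization, background correction, the series table, the region, outlier spots, dim probes, the replicate block, eBayes settings, unmoderated variances (an ordinary t statistic) and leaving out each array.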

Additional observations from a re-analysis of the deposited data

How the results depend on the processing

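The 2 galectin probes called higher became 0 without normalization between arrays, and 1 with the series table floored at 10, with the low-signal region kept and with variances not moderated across probes. With 1 array left out the count ranged from 0 to 2, and it was 0 without si-Control replicate 3. It stayed at 2 with the 75th percentile in place of quantile normalization, with normexp, with the median spot signal, with outlier spots kept, with dim probes left out, with a trended robust prior and with the replicate block. Over all probes, 1538 were called, against 920 with normexp, 945 with the median spot signal and 896 with variances not moderated across probes, which left 2 at an adjusted p under 0.05. The replicate block called 1604 probes and changed no call among the galectin probes. LGALS9 probe A_33_P3420416 had an adjusted p of 0.0474 with normexp, 0.0473 with the median spot signal and 0.0429 without dim probes, where C1GALT1 at -1.0 was called, and between 0.126 and 0.557 in its other settings. Calls were higher in 62.5% of cases, in 40.2% with the low-signal region kept and in 72.6% without normalization. The 75th percentile moved the median of all probes to -0.11. B4GALT5 lost its call without normalization (-1.17) and without si-C1GALT1-3 replicate 1 (-1.23), and EGFR without normalization (-1.27). IFIT2 was 0.18 without si-Control replicate 2 and 0.02 without si-C1GALT1-3 replicate 3.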
